A study of Mus musculus with 6 samples.

Results

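Immunoglobulin variable segments were examined in RNA of bone marrow LSK cells (lineage-negative, Sca-1-positive, c-Kit-positive), a sorted population in which blood stem cells are found along with multipotent progenitors. The segments were the rows whose gene symbol begins with Ighv, Igkv or Iglv followed by a digit and whose count summed over the 6 libraries reached 10. Of 346 such rows in a table of 48395, 208 met this minimum, namely 111 heavy chain, 94 kappa and 3 lambda segments. Another 24 rows had a count above 0 but fell short of the minimum, and 114 were at 0 in every library. Since the summed count chose the members, their presence is a description and not a result. Just inside the minimum lay Igkv4-56 with 10 counts and Igkv2-116 with 11, and just outside lay Ighv1-13 with 9 and Ighv1-30 with 8.

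B cells build each antibody gene by joining variable, diversity and joining segments of the heavy chain locus, and variable and joining segments of a light chain locus, kappa or lambda. One rearranged variable segment per chain is usually expressed by a B cell and by the plasma cells that descend from it, so the mix of segments in a bulk RNA sample reflects the antibody-producing cells it holds and how much each transcribes. The octamer-containing promoters of these segments become strongly active after joining, under enhancers near the constant regions, and plasma cells produce the transcripts at very high levels. Stem cells carry the loci unrearranged. In bulk RNA, fewer antibody-producing cells and less immunoglobulin RNA per cell cannot be told apart, and a count per segment does not identify a clone, because the joined sequence is not part of it.

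The libraries came from 2 groups of 3. Marrow of Mx1Cre; Jak2V617F/+ mice (Jak2VF/+), primed with 5-fluorouracil, was transduced with lentivirus and injected into lethally irradiated C57BL/6 mice, and LSK cells were sorted by flow cytometry 32 weeks after transplantation. One group was labelled Jak2VF/+ Hmga2, for a virus expressing the chromatin protein Hmga2, and the other Jak2VF/+ vector, for the virus without it, so that the controls carried the activating Jak2 allele too. Mx1 is an interferon-inducible promoter, which here drives the Cre recombinase, and induction of Cre is not described in the labels. The labels name neither a gate for donor origin or virus-carrying cells, nor the antibodies of the lineage cocktail, nor an age. They call the 3 libraries of a group biological replicates without saying how many mice each held, so p-values measure the spread between these libraries.

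Total counts per library ranged from 24818011 to 35471806, so that 3 counts corresponded to 0.0846 to 0.121 CPM (counts scaled to a common total for every library, per 1000000 counts). Hmga2 itself was at 2.63, 6.70 and 6.01 CPM in labelled Hmga2 replicates 1 to 3, against 6.07, 4.98 and 6.78 CPM in the vector libraries (log2 fold change -0.25, standard error 0.35, adjusted p = 0.934 in edgeR). The gene was therefore not raised where the label says that it was expressed, and all directions below are those of the libraries labelled Hmga2. The c-Kit gene was at 351 to 376 CPM in labelled Hmga2 replicates 1 to 3 and at 239 to 360 CPM in the vector libraries, and Ly6a, which encodes Sca-1, was at 32.1 to 46.0 CPM in the libraries with the Hmga2 label and at 19.2 to 56.9 CPM in the vector libraries.

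The segments that led their chain in each library are shown here by the last 120 coding bases of the germline segment, 5′ to 3′, from GENCODE M21 on GRCm38 (mm10). Capitals mark the stretch from the codon of the conserved cysteine to the end of the segment. The bases after that codon are the germline start of the third complementarity-determining region, the part of the antibody formed by joining. For heavy chains, the leaders were Ighv1-64 (labelled Hmga2 replicate 1), Ighv1-18 (labelled Hmga2 replicate 2), Ighv1-53 (labelled Hmga2 replicate 3), Ighv6-3 (vector replicate 1), Ighv5-17 (vector replicate 2) and Ighv1-78 (vector replicate 3).
Ighv1-64: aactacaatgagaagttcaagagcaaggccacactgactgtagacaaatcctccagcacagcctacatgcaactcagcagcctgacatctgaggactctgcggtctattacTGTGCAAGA
Ighv1-18: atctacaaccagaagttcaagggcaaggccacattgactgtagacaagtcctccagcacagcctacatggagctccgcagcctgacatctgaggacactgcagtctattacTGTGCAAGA
Ighv1-53: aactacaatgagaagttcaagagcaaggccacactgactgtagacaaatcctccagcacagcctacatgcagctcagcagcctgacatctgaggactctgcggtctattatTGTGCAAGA
Ighv6-3: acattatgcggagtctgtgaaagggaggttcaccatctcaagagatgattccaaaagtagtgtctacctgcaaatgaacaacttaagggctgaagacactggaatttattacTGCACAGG
Ighv5-17: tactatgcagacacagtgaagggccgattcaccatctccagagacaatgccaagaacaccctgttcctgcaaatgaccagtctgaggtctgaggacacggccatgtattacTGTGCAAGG
Ighv1-78: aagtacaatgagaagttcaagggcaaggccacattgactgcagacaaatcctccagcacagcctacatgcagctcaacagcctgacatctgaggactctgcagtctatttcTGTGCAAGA
The 6 leaders were distinct segments, and their coding sequences were between 56.5% and 95.4% identical over the aligned bases. Ighv1-64 and Ighv1-53 were the closest pair, with 335 of 351 aligned bases identical, and Ighv1-53 and Ighv6-3 the most distant. For kappa chains, Igkv4-63 led labelled Hmga2 replicate 1, Igkv12-46 led labelled Hmga2 replicate 2, Igkv1-110 led labelled Hmga2 replicate 3 and vector replicate 2, Igkv1-117 led vector replicate 1 and Igkv5-39 led vector replicate 3.
Igkv4-63: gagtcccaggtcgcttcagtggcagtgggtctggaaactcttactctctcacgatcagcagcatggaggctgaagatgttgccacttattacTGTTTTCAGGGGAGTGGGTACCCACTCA
Igkv12-46: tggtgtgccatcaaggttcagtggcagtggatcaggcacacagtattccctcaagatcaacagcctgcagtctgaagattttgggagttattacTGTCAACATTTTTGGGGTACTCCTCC
Igkv1-110: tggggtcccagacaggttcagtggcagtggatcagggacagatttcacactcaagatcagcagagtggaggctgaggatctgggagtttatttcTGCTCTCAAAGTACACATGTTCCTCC
Igkv1-117: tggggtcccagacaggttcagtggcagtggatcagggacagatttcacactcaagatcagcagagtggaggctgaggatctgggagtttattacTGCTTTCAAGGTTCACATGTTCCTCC
Igkv5-39: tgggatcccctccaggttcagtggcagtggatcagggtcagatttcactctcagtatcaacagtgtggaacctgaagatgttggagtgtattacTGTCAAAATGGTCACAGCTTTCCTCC
Igkv1-110 and Igkv1-117 were identical at 349 of 359 aligned bases (97.2%), and the other pairs of kappa leaders at 57.7% to 67.9%. The lambda locus offers few segments, and Iglv1 was the most abundant of them in all 6 libraries.
Iglv1: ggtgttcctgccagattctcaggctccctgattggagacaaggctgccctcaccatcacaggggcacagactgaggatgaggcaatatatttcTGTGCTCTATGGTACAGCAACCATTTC
Iglv2: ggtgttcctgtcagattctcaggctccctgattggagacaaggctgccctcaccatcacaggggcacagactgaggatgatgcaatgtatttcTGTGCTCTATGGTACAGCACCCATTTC
These lambda segments were identical at 340 of 351 bases (96.9%).

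Variable segment transcripts were abundant in vector replicates 1 and 3 and in labelled Hmga2 replicate 2, and low but present in the other three libraries. Summed over the 208 segments, the level was 222, 1717 and 134 CPM in labelled Hmga2 replicates 1, 2 and 3, against 5260, 188 and 4184 CPM in vector replicates 1, 2 and 3. The groups overlapped, since labelled Hmga2 replicates 1 and 2 lay above vector replicate 2. Of the 208 segments, 202 had their highest CPM in labelled Hmga2 replicate 2 (23 segments), vector replicate 1 (113) or vector replicate 3 (66). Members were chosen by a summed count to which these libraries gave the most, so the 202 are no result. The share over all genes was not taken. The mean was 691 ± 890 CPM in labelled Hmga2 replicates 1 to 3 and 3211 ± 2672 CPM in the vector libraries (SD, n = 3 each). An exact two-sided permutation test over the libraries gave p = 0.3, and 0.72 after adjustment over the 6 summaries tested this way. With 3 libraries against 3 the smallest p that this test can give is 0.1.

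Heavy and kappa segments made up most of these counts in every library. Heavy chain segments summed to 86.7, 647 and 51.4 CPM in labelled Hmga2 replicates 1 to 3, against 2312, 74.8 and 1433 CPM in vector replicates 1 to 3. Kappa segments summed to 124, 945 and 58.7 CPM in labelled Hmga2 replicates 1 to 3, against 2765, 96.3 and 2496 CPM in the vector libraries. Lambda segments summed to 11.1, 125 and 24.0 CPM in the libraries with the Hmga2 label, against 183, 17.1 and 255 CPM in the vector libraries. All 3 chains were thus high or low in the same libraries. Lambda made up 29.0% of light chain segment counts in labelled Hmga2 replicate 3 and between 6.20% and 15.1% in each of the other 5 libraries. There were between 1.27 and 1.92 light chain segment counts per heavy chain segment count in any library.

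**Figure D1:**
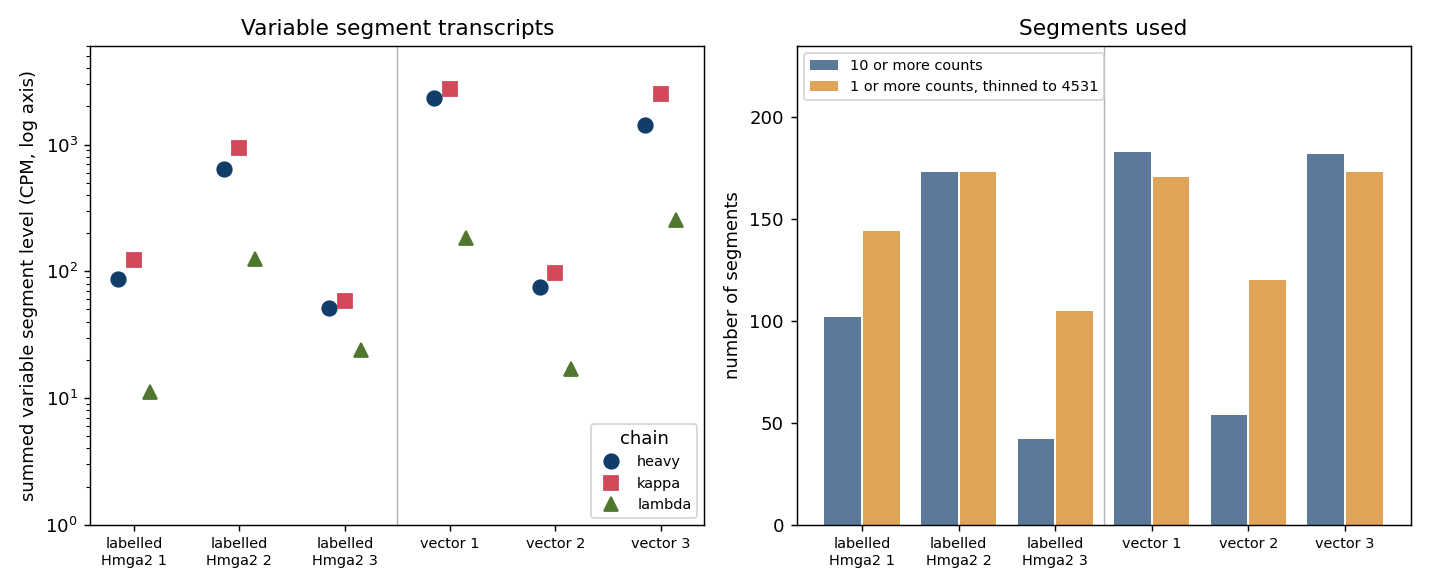
Left, summed level of heavy, kappa and lambda variable segments in each library in CPM on a log axis. Right, number of segments with 10 or more counts, and the expected number with a count when each library is thinned to 4531 variable segment counts; both panels show labelled Hmga2 replicate 2 and vector replicates 1 and 3 above the other libraries.

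Of 12 constant region genes, 7 were higher in each of labelled Hmga2 replicate 2 and vector replicates 1 and 3 than in any other library. So were 7 of 13 plasma cell genes, 2 of 12 mature B cell genes and 1 of 11 B cell progenitor genes. Ly6a and Hmga2, which are in none of these lists, had the same order, while the c-Kit gene and 6 genes of lineage antigens did not. The share of all genes with this order was not taken, so these counts have no background beside them. Among the constant region genes without this order, Iglc1 and Iglc3 were at 0 in every library, and Ighe had at most 2 counts in any library. Ighg1 and Ighd were the others without it. The kappa constant gene Igkc was at 125, 1039 and 63.1 CPM in labelled Hmga2 replicates 1 to 3, against 2827, 108 and 2703 CPM in the vector libraries, so that there were 0.891 to 0.987 kappa segment counts per Igkc count in all 6. Heavy chain segments had 0.124 to 0.224 counts per count of the 8 heavy constant genes. Jchain, which encodes the joining chain of secreted IgA and IgM, was at 45.6, 321 and 30.7 CPM in labelled Hmga2 replicates 1 to 3, against 855, 25.3 and 660 CPM in the vector libraries. The plasma cell list held 14 symbols, with Jchain and Igj naming the same gene, and 13 were in the table. None of the 13 was at 0 in any library. Their summed level was 374 to 666 CPM in labelled Hmga2 replicates 1 to 3 and 418 to 1295 CPM in the vector libraries. The sum followed Jchain: without it, the other 12 genes summed to 356, 345 and 344 CPM in labelled Hmga2 replicates 1 to 3, against 441, 392 and 447 CPM in the vector libraries, so that labelled Hmga2 replicate 2 was not high. Sdc1, Prdm1, Irf4, Mzb1, Tnfrsf17 and Derl3 were high in the same libraries as the segments, while Xbp1, Creld2 and Fkbp11 were lowest in labelled Hmga2 replicate 2. The 12 mature B cell genes summed to 148 to 175 CPM in labelled Hmga2 replicates 1 to 3 and 147 to 175 CPM in the vector libraries, most of it from Cd37. Cd79a, which encodes a signalling chain of the B cell receptor, followed the segments, at 1.01, 7.99 and 0.621 CPM in labelled Hmga2 replicates 1 to 3, against 16.1, 0.611 and 16.0 CPM in the vector libraries. Fcrla was at 0.226, 1.05 and 0.266 CPM in the libraries with the Hmga2 label, against 2.15, 0.229 and 2.901 CPM in the vector libraries. Pax5, which fixes B cell identity and is shut off in plasma cells, was at 0, 0.132 and 0.0296 CPM in labelled Hmga2 replicates 1 to 3 and at 0 in all 3 vector libraries. The 11 B cell progenitor genes summed to 26.6 to 106 CPM in labelled Hmga2 replicates 1 to 3 and 18.7 to 38.6 CPM in the vector libraries. Rag1, one of the recombinase genes, was at 0 in 4 of the 6 libraries and under 0.2 CPM in labelled Hmga2 replicate 3 and vector replicate 1. Rag2, another recombinase gene, had counts in all 6 libraries. Its level was 0.329 to 1.27 CPM in labelled Hmga2 replicates 1 to 3 and 0.481 to 1.001 CPM in the vector libraries. The part of these cell types in the segment levels was not tested. Rows for the joining and diversity segments themselves, 34 in all, held 0 counts in 4 libraries, 1 in vector replicate 1 and 3 in vector replicate 3.

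The number of segments in use differed widely between libraries. At least 10 counts were found for 102, 173 and 42 of the 208 segments in labelled Hmga2 replicates 1, 2 and 3, against 183, 54 and 182 in vector replicates 1, 2 and 3. Among heavy chain segments these numbers were 45, 90 and 21 of 111 in the libraries labelled Hmga2, against 99, 23 and 94 in the vector libraries. Among kappa segments they were 55, 80 and 19 of 94 in the libraries with the Hmga2 label, against 81, 29 and 85 in the vector libraries. Labelled Hmga2 replicate 3 had no count for 103 of the 208 segments, and vector replicate 1 had none for 8. The group means were 106 ± 65.6 segments in the libraries labelled Hmga2 and 140 ± 74.2 in the vector libraries (SD, n = 3 each; exact two-sided permutation p = 0.5).

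A library with more immunoglobulin reads passes 10 counts more easily, so the numbers were also set at equal depth. When each library was thinned to 4531 variable segment counts, the total of labelled Hmga2 replicate 3, the expected number of segments with a count was 144, 173 and 105 in labelled Hmga2 replicates 1 to 3, against 171, 120 and 173 in vector replicates 1 to 3. Labelled Hmga2 replicate 2 and vector replicates 1 and 3 still had more segments than the other libraries. These numbers count any segment with a count, so they are not to be set against those at 10 counts. For heavy chains thinned to 1738 counts the numbers were 69, 90.1 and 60 in the libraries with the Hmga2 label, against 90.1, 60.6 and 89.1 in the vector libraries. For kappa chains thinned to 1983 counts they were 69.9, 78.9 and 43 in the libraries with the Hmga2 label, against 75.0, 54.9 and 79.9 in the vector libraries. Reads are not molecules, so these values, and the intervals given below for shares, cover counting error only.

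In each library a few segments took much of the counts. The 5 most abundant heavy chain segments held 43.7%, 27.8% and 49.5% of heavy chain segment counts in labelled Hmga2 replicates 1, 2 and 3, against 32.2%, 42.5% and 38.4% in vector replicates 1, 2 and 3. Among kappa segments the top 5 held 39.99%, 27.2% and 57.4% in the libraries labelled Hmga2, against 34.1%, 49.6% and 48.8% in the vector libraries. A share of 50% of the counts was reached with 7, 13 and 6 heavy chain segments in the libraries labelled Hmga2, against 11, 7 and 10 in the vector libraries. A share of 90% was reached with as few as 17 heavy and 13 kappa segments in labelled Hmga2 replicate 3, and took 48 heavy and 46 kappa segments in labelled Hmga2 replicate 2.

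A measure that does not hang on a cut-off is the effective number, the count of equally used segments that would give the same concentration (inverse Simpson index). For heavy chains it was 13.6, 34.2 and 13.9 in labelled Hmga2 replicates 1, 2 and 3, against 28.6, 16.8 and 20.8 in vector replicates 1, 2 and 3, with means of 20.6 ± 11.8 in the libraries with the Hmga2 label and 22.1 ± 5.98 in the vector libraries (SD, n = 3 each; exact two-sided permutation p = 0.8). For kappa chains it was 21.8, 36.2 and 11.3 in the libraries labelled Hmga2, against 27.6, 14.5 and 9.73 in the vector libraries, with means of 23.1 ± 12.5 in the libraries with the Hmga2 label and 17.3 ± 9.27 in the vector libraries (SD, n = 3 each; exact two-sided permutation p = 0.6). Neither difference was larger than the spread between libraries of a group. Vector replicate 3 stood out by combining a high kappa level with the lowest kappa effective number of the 6, while its heavy chains were not the most concentrated.

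**Figure D2:**
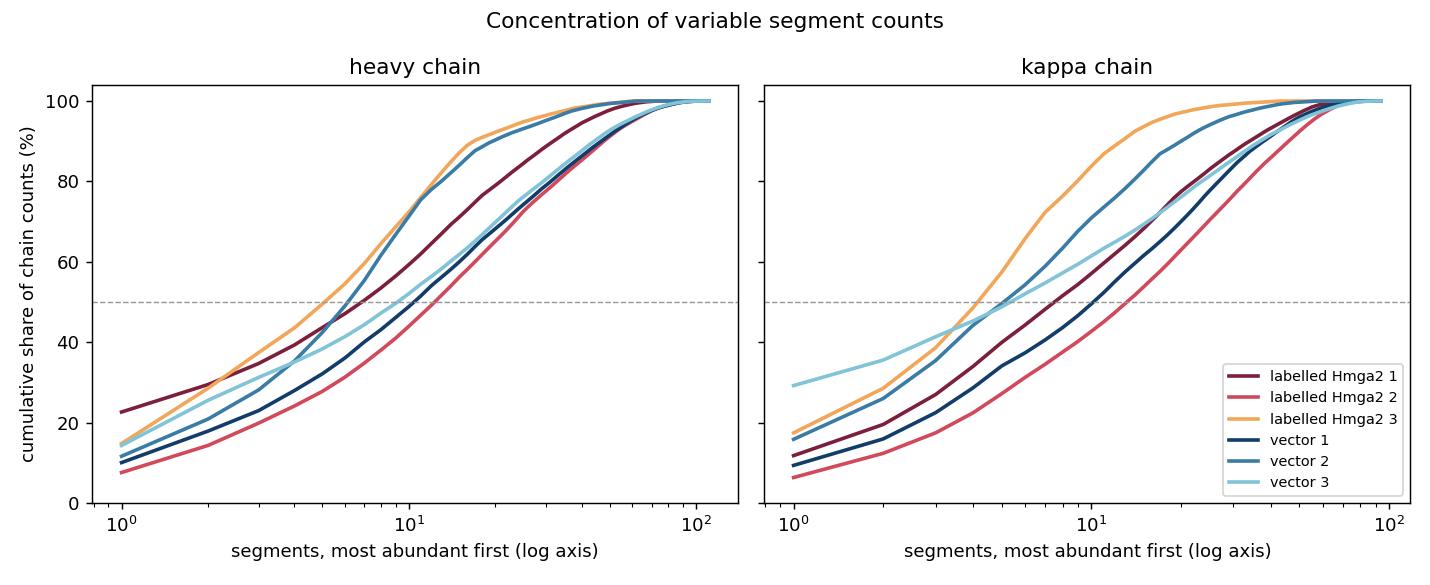
Cumulative share of heavy chain (left) and kappa (right) segment counts in percent against the number of segments on a log axis, most abundant first, 1 line per library. Curves that start high and rise early are concentrated: vector replicate 3 starts at 29.3% in the kappa panel, and labelled Hmga2 replicate 2 has the lowest curve over the first 10 segments in both panels.

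The leading heavy chain segments differed between libraries, and 14 segments filled the 18 places of the top 3 in 6 libraries. Ighv1-64 held 22.7% of heavy chain counts in labelled Hmga2 replicate 1 (698 of 3077 counts, 95% Wilson interval 21.2% to 24.2%). Its share was 2.96% and 3.28% in the other libraries labelled Hmga2, against 3.01%, 6.64% and 1.95% in the vector libraries. Ighv1-78 was absent from some libraries and led another, with a share of 14.4% in vector replicate 3 (95% interval 14.0% to 14.7%) and no count in labelled Hmga2 replicates 1 and 3. Its level was 0, 35.9 and 0 CPM in labelled Hmga2 replicates 1 to 3, against 91.6, 1.41 and 206 CPM in the vector libraries.

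Ighv6-3 led vector replicate 1 with 10.1% of heavy chain counts and was the second segment of labelled Hmga2 replicate 2. Its level was 4.003, 43.5 and 0.118 CPM in labelled Hmga2 replicates 1 to 3, against 234, 0.725 and 34.6 CPM in the vector libraries. Ighv1-53 led labelled Hmga2 replicate 3 with 14.8% and ranked behind Ighv1-64 and Ighv2-2 in labelled Hmga2 replicate 1, where Ighv2-2 held 6.83%. Ighv1-53 was at 4.54, 19.0 and 7.63 CPM in labelled Hmga2 replicates 1 to 3, against 96.1, 0.267 and 46.7 CPM in the vector libraries. A segment could thus lead a library of low immunoglobulin level while its CPM was higher elsewhere. Ighv1-18 led labelled Hmga2 replicate 2 with 7.64% and was at 0.141, 49.4 and 0.947 CPM in labelled Hmga2 replicates 1 to 3, against 19.3, 0.267 and 10.7 CPM in the vector libraries. Ighv5-17 led vector replicate 2 with 11.7% and reached the top 3 of vector replicate 3, while labelled Hmga2 replicate 3 had 1 count of it. Ighv1-85 and Ighv7-1 followed in vector replicate 2, with 9.24% and 7.25%.

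Other heavy chain segments of the top 3 varied as widely. Ighv3-6 was at 0.338, 7.73 and 2.13 CPM in labelled Hmga2 replicates 1 to 3, against 181, 4.70 and 34.5 CPM in the vector libraries. Ighv1-82 was at 1.47, 1.81 and 0.0296 CPM in the libraries with the Hmga2 label, against 118, 0 and 10.2 CPM in the vector libraries. Ighv5-9-1 was at 0, 4.47 and 3.05 CPM in the libraries with the Hmga2 label, against 19.1, 1.26 and 161 CPM in the vector libraries. In these cases vector replicate 1 or vector replicate 3 was far above every other library, and vector replicate 2 lay within or below the range of the libraries labelled Hmga2. Ighv1-62-2 held 13.8% of heavy chain counts in labelled Hmga2 replicate 3 and 7.10% in vector replicate 2, but 0.358% and 0.590% in labelled Hmga2 replicates 1 and 2 and 1.72% and 0.138% in vector replicates 1 and 3.

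Among kappa segments, Igkv1-110 was common to all libraries. It was among the 3 most abundant kappa segments in each of the 6, the only segment of either large locus of which this was so. Its level was 9.22, 56.9 and 10.3 CPM in labelled Hmga2 replicates 1 to 3, against 182, 15.3 and 145 CPM in the vector libraries. Its share of kappa counts was 7.45%, 6.02% and 17.5% in the libraries labelled Hmga2, against 6.59%, 15.9% and 5.80% in the vector libraries. Its share was thus highest in labelled Hmga2 replicate 3 and vector replicate 2, the libraries with the least immunoglobulin. The near-identical Igkv1-117 held 1.80%, 4.09% and 3.03% in the libraries with the Hmga2 label, against 9.41%, 4.60% and 2.69% in the vector libraries.

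Igkv5-39 reached the highest share of any heavy chain or kappa segment in a library. It held 29.3% of kappa counts in vector replicate 3, or 18125 of 61935 counts (95% Wilson interval 28.9% to 29.6%). Its level was 1.18, 17.2 and 0.0592 CPM in labelled Hmga2 replicates 1 to 3, against 170, 9.09 and 730 CPM in the vector libraries. It was also the third kappa segment of vector replicate 2, with 9.44%. It was among the 10 segments with a deposited value that was not whole, and its nearest relative, Igkv5-45, was identical at 90.5% of aligned bases.

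Igkv4-63, Igkv12-46 and Igkv8-19 each reached the top 3 in 1 library. Igkv4-63 held 11.8% of kappa counts in labelled Hmga2 replicate 1 and was at 14.7, 9.34 and 0.237 CPM in labelled Hmga2 replicates 1 to 3, against 2.98, 0 and 4.51 CPM in the vector libraries. Its highest CPM was thus in a library whose summed kappa level was 124 CPM, labelled Hmga2 replicate 1, against 2496 CPM in vector replicate 3. Igkv12-46 held 6.40% in labelled Hmga2 replicate 2, at 60.5 CPM, and its level was 0.874 and 1.21 CPM in labelled Hmga2 replicates 1 and 3, against 4.23, 0.153 and 7.86 CPM in the vector libraries. Igkv8-19 was at 9.59, 3.91 and 0 CPM in labelled Hmga2 replicates 1 to 3, against 77.5, 5.23 and 3.79 CPM in the vector libraries. The remaining kappa segments of the top 3 were Igkv1-135, Igkv12-41, Igkv17-127, Igkv4-59, Igkv6-15 and Igkv9-120. Of these, Igkv9-120 held 11.1% of kappa counts in labelled Hmga2 replicate 3 and had no count in vector replicate 2, while Igkv4-59 held 10.2% in vector replicate 2 and 0.101% in labelled Hmga2 replicate 3.

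**Figure D3:**
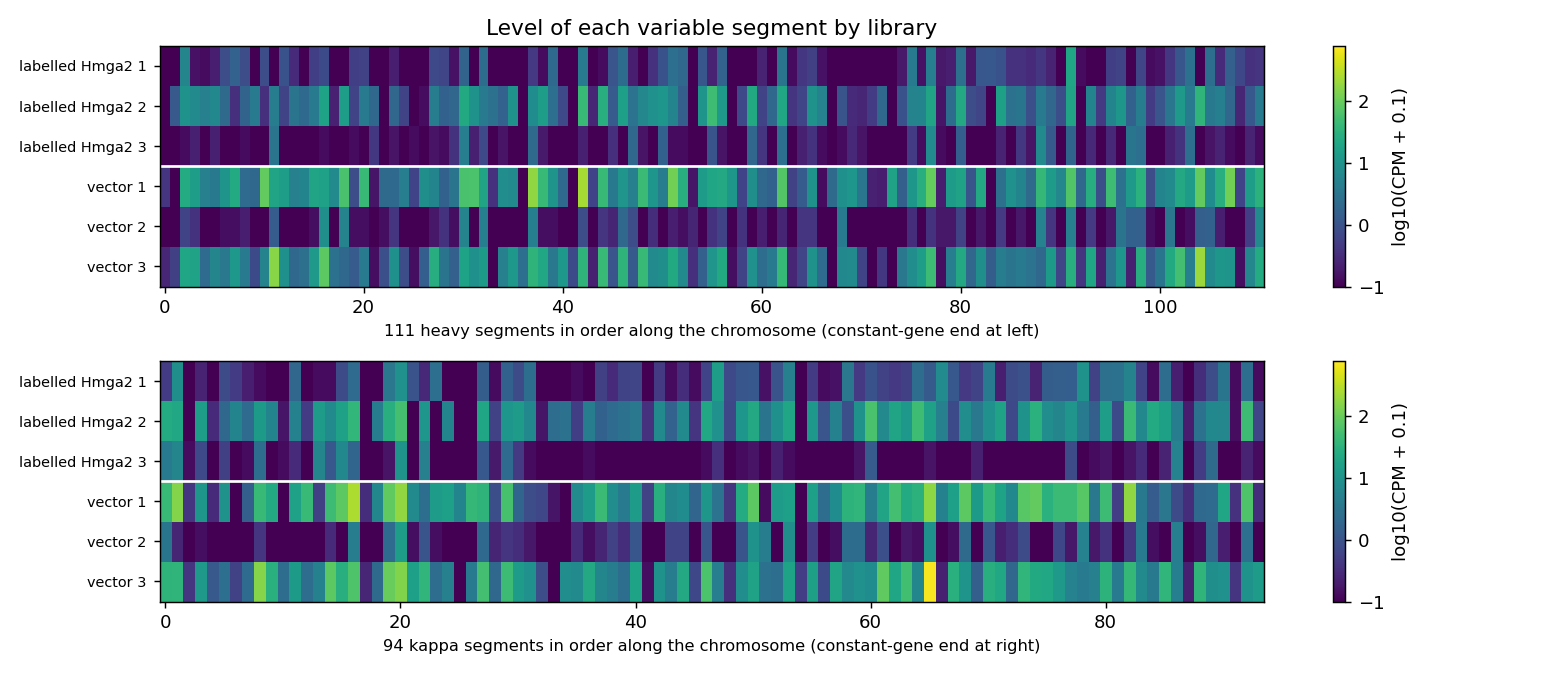
Level of every heavy chain (top) and kappa (bottom) segment in each library, as log10(CPM + 0.1), with segments in their order along the chromosome. Rows of vector replicates 1 and 3 and labelled Hmga2 replicate 2 are filled along the whole locus, while the other rows show scattered bright segments; the brightest cell of the lower panel is Igkv5-39 in vector replicate 3.

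Lambda use divided between Iglv1 and Iglv2. Iglv1 (chromosome 16, positions 19085017 to 19085500, minus strand) was at 8.15, 106 and 12.3 CPM in labelled Hmga2 replicates 1 to 3, against 118, 16.4 and 151 CPM in the vector libraries. Iglv2 was at 2.76, 17.5 and 11.7 CPM in the libraries with the Hmga2 label, against 62.8, 0.573 and 97.2 CPM in the vector libraries. Iglv1 held 73.5%, 85.4% and 51.2% of lambda counts in the libraries labelled Hmga2, against 64.4%, 96.2% and 59.1% in the vector libraries. Vector replicate 2 had only 15 counts of Iglv2 beside 430 of Iglv1, whereas labelled Hmga2 replicate 3, of similar immunoglobulin level, had 395 beside 415. Iglv3 was at 0.169, 0.723 and 0 CPM in the libraries with the Hmga2 label, against 2.31, 0.0764 and 7.09 CPM in the vector libraries. Since Iglv1 and Iglv2 are nearly identical, the division of their reads is uncertain.

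Few segments were used in every library. At least 10 counts in all 6 libraries were found for 14 segments, made up of 7 heavy chain segments (Ighv1-55, Ighv1-62-2, Ighv1-64, Ighv1-72, Ighv14-4, Ighv3-6 and Ighv9-3), 5 kappa segments (Igkv1-110, Igkv1-117, Igkv10-96, Igkv2-137 and Igkv3-5) and Iglv1 and Iglv2. Among segments passing in 3 libraries, 44 of 51 passed in labelled Hmga2 replicate 2 and vector replicates 1 and 3. Another 18 segments passed in a single library, 9 of them in vector replicate 1, 5 in vector replicate 3 and 4 in labelled Hmga2 replicate 2. No segment passed only in labelled Hmga2 replicate 1, labelled Hmga2 replicate 3 or vector replicate 2. These libraries held 7859, 4531 and 4928 variable segment counts, in that order, against 52213 to 164158 in the others. A cut of 10 counts is harder to reach at such totals, and sharing was not counted again at equal depth. The numbers of segments shared by all libraries or found in a single library are thus a description and no result.

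Presence everywhere did not mean even use. The 7 heavy chain segments held 31.7%, 13.1% and 38.9% of heavy chain counts in labelled Hmga2 replicates 1, 2 and 3, against 18.1%, 36.0% and 10.2% in vector replicates 1, 2 and 3. The CPM of these 14 segments differed between the highest and the lowest library by 11.9-fold for Igkv3-5 up to 535-fold for Ighv3-6. Igkv3-5 was at 0.733, 6.44 and 2.13 CPM in labelled Hmga2 replicates 1 to 3, against 2.21, 1.83 and 8.70 CPM in the vector libraries. Igkv10-96 had the steadiest share of the heavy chain and kappa segments used in all 6 libraries, between 1.07% and 2.16% of kappa counts. Ighv9-3 was at 1.64, 23.4 and 4.56 CPM in the libraries with the Hmga2 label, against 60.5, 5.38 and 18.1 CPM in the vector libraries, and Ighv14-4 at 2.31, 3.78 and 0.621 CPM in the libraries with the Hmga2 label, against 19.1, 4.70 and 13.3 CPM in the vector libraries.

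For heavy chains, the libraries with the most immunoglobulin shared the most segment use, across the group labels. The shared part of use, taken as the sum over segments of the smaller of the shares in a pair of libraries, was 57.9% between labelled Hmga2 replicate 2 and vector replicate 1 for heavy chains, 58.5% between labelled Hmga2 replicate 2 and vector replicate 3, and 54.6% between vector replicates 1 and 3. The other 12 heavy chain pairs shared between 28.0% (labelled Hmga2 replicate 1 with vector replicate 2) and 44.0% (labelled Hmga2 replicates 1 and 2). For kappa chains, labelled Hmga2 replicate 2 and vector replicate 1 shared most (63.0%), and labelled Hmga2 replicates 1 and 3 least (26.5%). Counting error is larger in the low libraries and lowers the shared part, which was not corrected for.

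Most segments used in the libraries with little immunoglobulin were also used in those with more. Of the 42 segments with 10 or more counts in labelled Hmga2 replicate 3, 41 also passed in vector replicate 1 (97.6% of the 42 and 22.4% of the 183). Vector replicate 1 passed for 183 of all 208 segments, and the members were chosen by a count summed over all libraries. A large overlap with it was thus set beforehand and is no result. In vector replicate 2, with 54 of the 208 in use, 19 of the 42 passed, which is 45.2% of the 42 and 35.2% of the 54. Labelled Hmga2 replicates 1 and 3 had 26 segments in common, 25.5% of the 102 and 61.9% of the 42. Of the 10 most abundant heavy chain segments, a pair of libraries had between 1 and 5 in common.

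**Figure D4:**
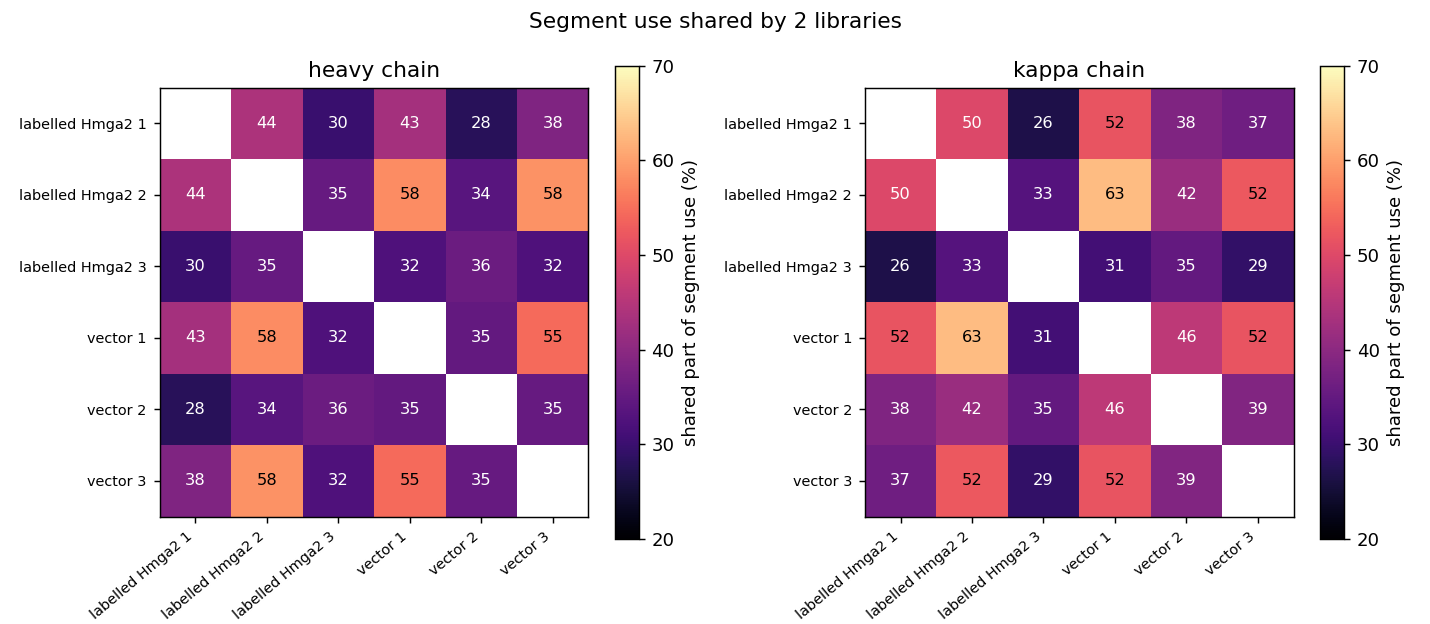
Shared part of heavy chain (left) and kappa (right) segment use for each pair of libraries, in percent, as the sum over segments of the smaller share. The brightest heavy chain cells join labelled Hmga2 replicate 2 with vector replicates 1 and 3, at 57.9% and 58.5%.

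Segments are grouped into families by sequence, given by the first number of the symbol. Family 1 of the heavy chain had 58 of the 111 members and held 66.5%, 55.7% and 76.9% of heavy chain counts in labelled Hmga2 replicates 1, 2 and 3, against 51.3%, 48.4% and 53.3% in vector replicates 1, 2 and 3. Heavy chain family 5 held 3.28%, 7.31% and 6.44% in the libraries labelled Hmga2, against 4.56%, 13.8% and 20.5% in the vector libraries. Family 1 was highest in labelled Hmga2 replicates 1 and 3, and family 5 in vector replicates 2 and 3. Among kappa segments, family 4 had 25 members and held 26.2%, 15.7% and 0.908% in the libraries labelled Hmga2, against 12.1%, 31.4% and 9.78% in the vector libraries. Family 1 held 42.3% in labelled Hmga2 replicate 3, and family 5 held 35.2% in vector replicate 3, most of it from Igkv5-39.

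**Figure D5:**
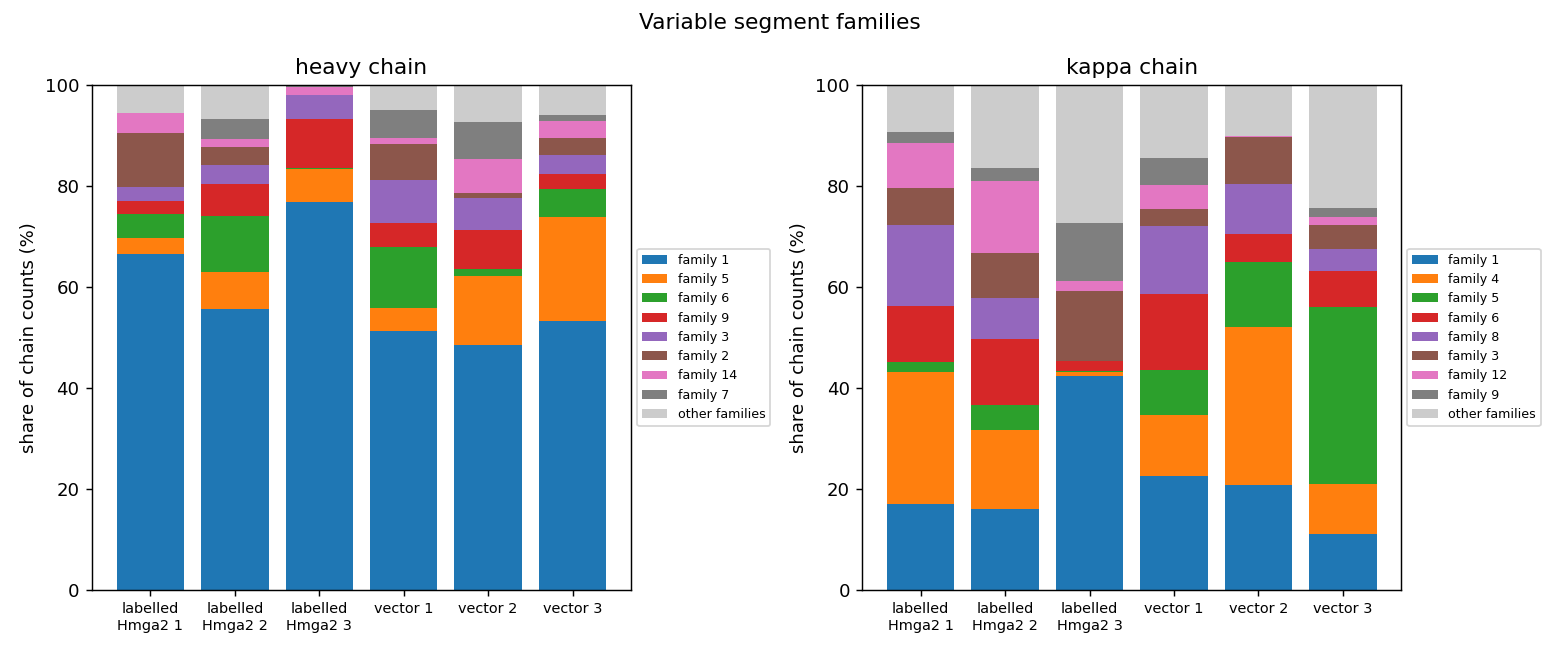
Share of heavy chain (left) and kappa (right) segment counts held by each family, in percent, with 1 stacked bar per library. Heavy chain family 1 holds between 48.4% and 76.9% in the 6 libraries, while kappa family 4 ranges from 0.908% to 31.4%.

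Used segments lay along the whole of each locus. The 111 heavy chain segments span positions 113572927 to 116000461 of chromosome 12, all on the minus strand. The kappa segments span 67555497 to 70704177 of chromosome 6, with 56 on the minus and 38 on the plus strand. With the heavy chain segments divided into 3 sets of 37 by position, the set nearest the constant genes held 21.03%, 23.4% and 18.5% of counts in labelled Hmga2 replicates 1, 2 and 3, against 24.2%, 36.5% and 31.6% in vector replicates 1, 2 and 3. The set farthest from them held 53.4%, 32.0% and 57.2% in the libraries with the Hmga2 label, against 35.0%, 43.4% and 40.8% in the vector libraries. The nearest set thus held a smaller share in labelled Hmga2 replicates 1, 2 and 3 than in any vector library, with labelled Hmga2 replicate 2 and vector replicate 1 less than 1 percentage point apart. This split was made after the values were seen and was not tested.

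Counts fell almost wholly on segments that can encode an antibody. GENCODE M21 classes 216 of the 346 rows as functional variable genes and 128 as pseudogenes. Of the functional rows 193 (89.4%) reached the minimum, and of the pseudogenes 15 (11.7%). Pseudogenes held 2.44%, 1.32% and 1.38% of heavy chain counts in labelled Hmga2 replicates 1, 2 and 3, against 0.808%, 1.28% and 0.762% in vector replicates 1, 2 and 3, and at most 0.0504% of kappa counts. The 4 kappa pseudogenes among the members had no count in labelled Hmga2 replicate 1 or vector replicate 2. Ighv1-2 and Ighv1-62 were the most abundant of the pseudogene members, with 8 to 37 and 9 to 96 counts in the libraries labelled Hmga2, against 4 to 116 and 2 to 174 counts in the vector libraries.

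Tested one by one against the spread between libraries, no segment passed. Of the 208, 166 passed the filter on low counts and entered the edgeR fit over 16739 genes, in which 0 genes passed an adjusted p of 0.05 (0% of all genes tested, and 0 segments). At an unadjusted p under 0.05, 19 of the 166 segments (11.4%) were lower in the libraries labelled Hmga2, beside 3.36% of all genes, and 0 were higher, beside 2.23%. A negative log2 fold change was found for 155 of the 166, beside 49.6% of all genes, with a median of -2.19 against 0.0016 for all genes. Segments rise and fall together with the immunoglobulin content of a library, so the 155 are not separate observations. The count of 19 became 14, 87 and 11 without labelled Hmga2 replicates 1, 2 and 3, in that order. It became 7, 68 and 9 without vector replicates 1, 2 and 3. The share over all genes and the number of segments tested were not taken for these fits. The 3.36% belongs to the fit of 6 libraries, so these counts are no result about the segments. The median was -4.76 without labelled Hmga2 replicate 2.

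The groups did not overlap for 4 tested segments, all lower in the libraries labelled Hmga2 (2.41% of the 166, beside 5.87% of all genes), and for no segment in the other direction (5.29% of all genes). These 4, chosen after their values were seen, were Ighv1-39, Ighv1-75, Ighv1-85 and Ighv14-4. Ighv1-39 was at 0, 0.921 and 0.0296 CPM in labelled Hmga2 replicates 1 to 3, against 9.004, 3.86 and 6.57 CPM in the vector libraries, with a log2 fold change of -4.40 and a standard error of 1.22 (adjusted p = 0.855, edgeR). Ighv14-4 had the smallest standard error, 0.72, with a log2 fold change of -2.48 (adjusted p = 0.855, edgeR). Ighv1-75 was at 0.310, 3.35 and 0.118 CPM in the libraries with the Hmga2 label, against 7.02, 3.36 and 23.5 CPM in the vector libraries, so that labelled Hmga2 replicate 2 and vector replicate 2 nearly met. Ighv1-85 was at 0.282, 4.14 and 0.0296 CPM in the libraries with the Hmga2 label, against 31.9, 6.91 and 24.6 CPM in the vector libraries. A share of segments below the background is no result about the segments.

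DESeq2, the other tool run, called 1 of 194 segments lower (0.515%), beside 0.282% of the 20895 genes for which it gave an adjusted p, and called 0 higher, beside 0.0383%. The segment was Ighv11-1 (chromosome 12, positions 113981879 to 113982341), with 0 counts in each library labelled Hmga2, against 67, 1 and 20 counts in the vector libraries (adjusted p = 0.00558, DESeq2). Set against 3 counts per library, its level was at least 10.996-fold lower in the libraries labelled Hmga2, a bound that fell to 4.66-fold without vector replicate 1. The count in vector replicate 2 was itself under 3. It did not pass the count filter of edgeR, and without that filter its adjusted p was 0.844 there. For Igkv1-110 the log2 fold change was -2.19 (95% interval -4.57 to 0.18, adjusted p = 0.855, edgeR). For Iglv1 it was -1.21 (95% interval -3.80 to 1.38, adjusted p = 0.890, edgeR). Both intervals spanned 0. Among the 14 segments used in all 6 libraries, the intervals of Ighv14-4 (-4.17 to -0.79), Ighv1-72 (-5.64 to -0.46) and Ighv3-6 (-7.86 to -1.06) lay below 0 before adjustment over genes. Of all genes tested, 3.36% were lower at an unadjusted p under 0.05. Each of these segments had an adjusted p of 0.855 (edgeR), and the groups overlapped for Ighv1-72 and Ighv3-6.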

How the data were processed

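RNA of LSK cells was sequenced from 6 mouse libraries, 3 labelled Hmga2 and 3 vector, grouped by their titles. The authors deposited expected counts for each symbol, a unit judged from the numbers: no value was below 0, totals differed between libraries, and 74.0% to 77.9% of non-zero values lay within 0.01 of a whole number. Partek 3.0, Bowtie2 and the build mm10 are named per the submitters' processing notes. What counter, annotation or strandedness was used was not given in the sources used here. How reads matching several similar segments were handled is not stated, so levels of near-identical segments are uncertain. For 198 of the 208 segments every value was counted as whole, which means within 0.01 of a whole number.

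CPM and shares use the library total and the chain total. Shares are of counts, not per length; coding lengths were 303 to 394 bases in the 193 segments with an annotated coding sequence. Counts were rounded, and edgeR 4.0.16 (R 4.3.3) gave the tests (TMM, filterByExpr, quasi-likelihood F test on group alone, Benjamini-Hochberg adjustment over all genes, threshold 0.05). Overlap of groups was judged on TMM-scaled CPM, and each standard error is the fold change divided by the root of F. Summaries per library were compared by exact permutation in scipy 1.17.1. DESeq2 1.42.0 was the other tool. The steps were tested on simulated data. Positions and sequences come from GENCODE M21, where all 208 symbols had 1 gene, and identities from Biopython 1.88 global alignments. No pair of replicates agreed within counting noise (chi-square divided by its degrees of freedom, 24.8 to 57.0).

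Segments named are the 3 most abundant of each library per locus, all lambda segments, the 5 per locus with the highest minimum CPM, calls, and rows next to the minimum; any other segment named was picked with its values in view. The members and lists were chosen with earlier results of these data known. Alternatives were each library left out, a replicate block, other size factors, count filters and minimums, thinning, DESeq2, and immunoglobulin rows left out of library sizes.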

Additional observations from a re-analysis of the deposited data

How the results depend on the processing

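The lower summed level, the lower number of segments and the lower top kappa share in the libraries labelled Hmga2 kept their direction under every alternative run for them, with differences, labelled Hmga2 minus vector, of -4031 to -1495 CPM, -76.8 to -2.17 segments and -10.7 to -0.21 percentage points; none of these comparisons can pass 0.05. The difference in the effective number of heavy chain segments, -1.49, changed sign with single libraries left out (range -8.29 to 1.98, above 0 without labelled Hmga2 replicate 1, labelled Hmga2 replicate 3 or vector replicate 1). The difference for kappa segments, 5.79, ranged from -0.78 (without labelled Hmga2 replicate 2) to 11.7 with single libraries left out. It was -1.03 with only segments whose values were counted as whole, a set that leaves out Igkv5-39. The difference in the top heavy chain share, 3.003 percentage points, ranged from -0.81 (without labelled Hmga2 replicate 1) to 6.71. The Hmga2 gene had a log2 fold change of 0.063 without labelled Hmga2 replicate 1, and -0.49 to 0.063 over all alternatives. Genes called numbered 0 in edgeR, 1 without the count filter and 67 in DESeq2, and segments called 0 in edgeR and 1 in DESeq2; apart from these, other size factors, single libraries left out and immunoglobulin rows left out of library sizes gave 0 calls, and the cause was not tested. Segments lower at an unadjusted p under 0.05 numbered 6 to 87 over the alternatives (50 without the count filter) and segments higher 0 to 2. The share over all genes was not taken for these alternatives. The median log2 fold change of the segments stayed between -4.76 and -1.23. Same-numbered libraries did not deviate together (correlations -0.21, -0.50 and -0.26). Deviations from a mean of 3 libraries cannot exclude a pairing by number. With the replicate block 0 genes and 0 segments were called and 6 segments were lower at an unadjusted p under 0.05. Leaving Jchain out of the plasma cell genes, and single vector libraries out of the Ighv11-1 bound (4.66 to 16.3-fold), was chosen after seeing the data. Segments of the low libraries rest on few counts, and absence there was not detectable below 3 counts.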

Other observations

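Xbp1, a transcription factor gene of the secretory response, had 139, 126 and 130 CPM in labelled Hmga2 replicates 1 to 3, against 165, 163 and 165 CPM in the vector libraries (adjusted p = 0.855, edgeR). The groups did not overlap, as was so in this direction for 5.87% of all genes tested. Dntt, which adds bases at the joints of rearranging segments, had 28.8, 19.8 and 92.8 CPM in labelled Hmga2 replicates 1 to 3, against 24.8, 12.03 and 27.2 CPM in the vector libraries. Its highest level was in labelled Hmga2 replicate 3, the library with the fewest variable segment counts. Ighd, the constant region of IgD, was also highest there, at 5.89 CPM, beside 0.733 and 0.132 CPM in the other libraries labelled Hmga2, against 0.224 to 0.993 CPM in the vector libraries.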
